A study of Rattus norvegicus with 10 samples.

Results

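The AP-1 genes described here are 9 genes chosen by name: *Fos*, *Fosb*, *Fosl1*, *Fosl2*, *Jun*, *Junb*, *Jund*, *Atf3* and *Maff*. They and the related lists were chosen with earlier results of these data known. Shares over all genes beside their counts are thus a description and no test of the lists. All 9 were among the 9003 genes of the expression table, which holds only genes that reached 1 CPM in some library. AP-1 is a family of dimeric transcription factors of the basic leucine zipper (bZIP) class. Jun proteins pair with themselves, with Fos proteins or with ATF proteins, and the dimers bind short DNA sites named TRE and CRE. Fos proteins cannot pair with themselves and need a Jun partner. Many of these genes are immediate early genes, which cells switch on within minutes of a stimulus through MAP kinases and without new protein synthesis. In macrophages AP-1 takes part in the response to cytokines, microbial products and growth factors, and the same genes are known to respond when tissue is taken apart for sorting.

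Splenic M2 macrophages, the anti-inflammatory macrophage class, had been sorted by flow cytometry from WKY /Ncrj rats in 4 groups. The control group came from rats in a physiological condition (n = 2), and the GN group from rats with glomerulonephritis and no cell treatment (n = 2). The study's methods name the antibody TF78, which binds the rat glomerular basement membrane, as the agent that causes the nephritis, and young adult female rats for this model. The remaining groups both came from nephritic rats that had also received human adipose-derived mesenchymal stem cells (ASCs) labelled with the membrane dye DiD, and were split by the dye into EV-positive (EV+, n = 3) and EV-negative (EV−, n = 3) macrophages. DiD is taken in the study as the mark of transferred extracellular vesicles (EVs). The paper bases this on imaging, where most of the dye lay on the surface of leukocytes and few cells held it mainly in the cytoplasm. It also filmed EVs passing from ASCs to macrophages in culture. The sort itself used only the dye, which marks membrane from the ASCs and not vesicles as such. Nephritis was thus shared by GN, EV+ and EV−, and ASC treatment by EV+ and EV−. Spleens had been digested with warm collagenase before the sort. Every library is called a biological replicate by the study, but the labels tie none of them to an animal, so the p-values measure the spread between these libraries. The values are TMM-normalized counts scaled to library size (CPM), which are not scaled by gene length, so levels were compared between groups and not between genes.

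Libraries held between 19270515 and 26617093 reads on the genes of the table, and the 3 reads taken as the least that counts as detected corresponded to between 0.113 and 0.153 CPM. This limit covers counting error only. All 9 AP-1 genes were above it in every library. The macrophage markers *Csf1r*, *Lyz2*, *Adgre1* and *Cd68* were high in all 10 libraries (*Csf1r* between 5800 and 8155 CPM), whereas *Cd163* and *Mrc1*, often used as markers of M2 macrophages, did not pass 1.81 CPM in any library. Replicate 1 of the EV− group stood apart, with a summed level of 756 CPM over 11 of 13 listed markers of NK and T cells against 18.6 to 106 CPM in the other libraries. Replicate 1 of both EV groups also stood apart for *Jun*, as described with that gene. Results that rest on these libraries are given with and without them. In sorted bulk samples, fewer cells expressing a gene and less RNA per cell cannot be told apart.

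The 250 bases upstream of the start site were read from RefSeq (GRCr8) for the 6 AP-1 genes that its promoter table lists, which leaves *Fos*, *Jun* and *Atf3* named only. Those of *Junb*, *Jund* and *Maff* are shown because *Junb* and *Jund* passed the tests between groups given later, and because *Jund* and *Maff* hold a site that AP-1 and ATF dimers bind. The searched sites were the TRE (TGAGTCA or TGACTCA, the same site read from either strand), the CRE (TGACGTCA, which reads the same on both strands and cannot overlap a TRE letter for letter) and the CArG box of serum response factor. Capitals mark a CRE.
*Junb*, chr19:40080876-40081125, + strand: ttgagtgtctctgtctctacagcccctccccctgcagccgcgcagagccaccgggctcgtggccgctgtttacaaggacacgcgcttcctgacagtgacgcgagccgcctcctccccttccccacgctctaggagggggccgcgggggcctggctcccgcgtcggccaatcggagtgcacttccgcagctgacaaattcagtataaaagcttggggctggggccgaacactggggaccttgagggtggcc
*Jund*, chr16:18769772-18770021, − strand: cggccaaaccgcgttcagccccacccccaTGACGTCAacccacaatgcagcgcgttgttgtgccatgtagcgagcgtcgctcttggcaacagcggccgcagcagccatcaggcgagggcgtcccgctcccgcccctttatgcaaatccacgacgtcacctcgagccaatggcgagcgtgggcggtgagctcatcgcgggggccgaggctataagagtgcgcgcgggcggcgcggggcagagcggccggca
*Maff*, chr7:112792537-112792786, + strand: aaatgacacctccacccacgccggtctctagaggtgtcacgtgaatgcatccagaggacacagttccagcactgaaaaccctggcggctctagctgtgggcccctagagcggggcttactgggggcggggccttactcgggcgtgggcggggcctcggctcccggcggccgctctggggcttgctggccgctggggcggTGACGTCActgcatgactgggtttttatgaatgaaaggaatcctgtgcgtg
The CRE began 221 bases upstream of the start in *Jund* and 51 bases upstream in *Maff*. None of the 6 windows held a TRE or a CArG box, and *Junb*, *Fosb*, *Fosl1* and *Fosl2* held none of the 3 sites in this window. Of 27457 promoter windows of the same length, 1.7% held a CRE, 3.98% a TRE and 1.5% a CArG box. Among the 6970 windows of genes in the expression table the share with a CRE was 3.16%. These matches describe the letters and are not measured binding sites.

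Among the Fos subunits, *Fos*, the founding member and a fast-responding gene, stood at 3828 and 3174 CPM in the 2 control libraries and at 2151 and 1924 CPM in the 2 GN libraries. The EV+ libraries held 1272, 966 and 1119 CPM, and the EV− libraries 1873, 841 and 988 CPM. The control libraries were the highest, the GN libraries came next, and all 6 EV libraries were below GN, although EV− replicate 1 lay just under the lower GN library. *Fosb*, a close relative of *Fos*, had the same order of groups: 53.1 and 51.0 CPM in control, 26.3 and 27.2 CPM in GN, 12.8, 7.24 and 11.2 CPM in EV+, and 17.5, 6.52 and 8.75 CPM in EV−. No group of *Fosb* overlapped another except EV+ and EV−. *Fosl1*, which encodes Fra-1, was low throughout, at 6.93 and 3.09 CPM in control, 3.71 and 3.77 CPM in GN, between 2.53 and 3.56 CPM in EV+ and between 1.75 and 3.27 CPM in EV−. Its control libraries differed 2.24-fold from each other and enclosed the GN values. *Fosl2*, which encodes Fra-2, stood at 37.2 and 23.6 CPM in control, 27.3 and 24.7 CPM in GN, between 21.8 and 26.5 CPM in EV+ and between 23.9 and 29.1 CPM in EV−. The groups of *Fosl2* overlapped, and its control spread covered most other libraries.

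Among the Jun subunits, *Jun*, the main DNA-binding partner of Fos proteins and the target of JNK kinases, had 748 and 634 CPM in control against 460 and 419 CPM in GN. Its EV+ libraries held 319, 120 and 92.1 CPM and its EV− libraries 474, 151 and 119 CPM. Replicate 1 was the highest library in both EV groups, and in EV− it was above both GN libraries, so the EV− range spanned 3.97-fold. *Junb*, a Jun protein that can oppose *Jun* at some genes, varied far less within groups. It stood at 2499 and 2152 CPM in control, 1896 and 1744 CPM in GN, 1019, 1251 and 1190 CPM in EV+, and 1105, 1235 and 1238 CPM in EV−. Here replicate 1 was the lowest library of both EV groups, the opposite of *Jun*, and no EV library reached a GN library. *Jund*, which many cells express steadily, had 1307 and 1039 CPM in control, 715 and 687 CPM in GN, 491, 390 and 463 CPM in EV+, and 612, 426 and 507 CPM in EV−. Control, GN and the EV libraries did not overlap, and EV− replicate 1 was the nearest to GN.

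*Atf3*, a stress-induced ATF factor that pairs with Jun proteins and often represses its targets, held 157 and 112 CPM in control against 69.7 and 73.5 CPM in GN. In EV+ it held 41.4, 46.7 and 42.4 CPM, and in EV− 46.6, 42.6 and 60.1 CPM. These levels again descended from control through GN to the EV groups without overlap, and the highest EV library was EV− replicate 3 rather than replicate 1. *Maff*, a small Maf protein that has no activation domain of its own, had few reads, with 5.39 and 4.95 CPM in control, 3.12 and 3.05 CPM in GN, between 2.19 and 2.78 CPM in EV+ and between 0.815 and 3.01 CPM in EV−. Its highest EV library, EV− replicate 1, lay just under the lower GN library. Altogether 6 of the 9 genes (*Fos*, *Fosb*, *Junb*, *Jund*, *Atf3* and *Maff*) had both control libraries above both GN libraries and both GN libraries above all 6 EV libraries, an order that 0.833% of all genes showed.

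**Figure D1:**
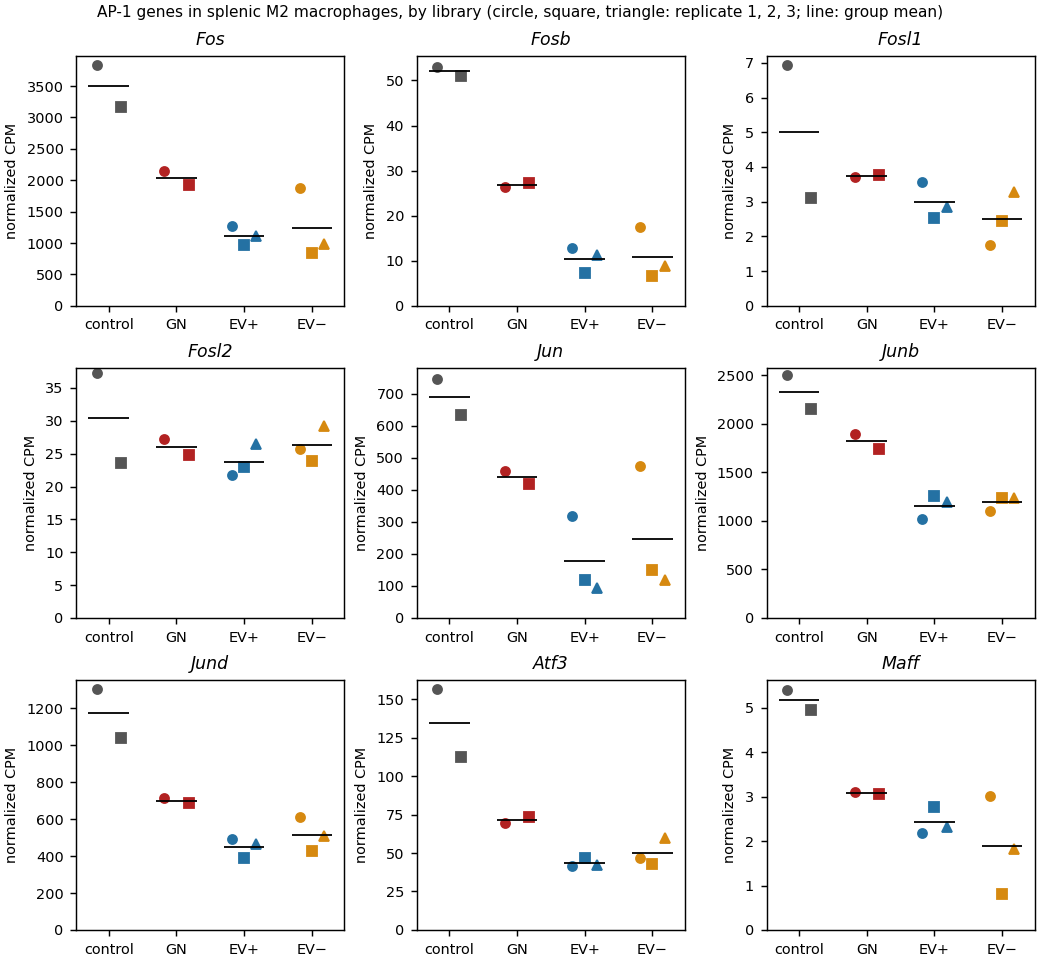
TMM-normalized CPM of the 9 AP-1 genes (vertical axes, each from 0) in the 4 groups (horizontal axes), with 1 point for each library (circle, square and triangle for replicates 1, 2 and 3) and a line at the group mean. In *Fos*, *Fosb*, *Junb*, *Jund*, *Atf3* and *Maff* the 2 control libraries lie above the 2 GN libraries and these above all 6 EV libraries; in *Jun*, EV− replicate 1 lies at 474 CPM, above both GN libraries.

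GN was compared with control to ask how nephritis alone related to AP-1 expression in these macrophages. *Jund* and *Atf3* fell. *Jund* was lower by a log2 difference of -0.73 (SE 0.15, adjusted p = 0.0332) and *Atf3* by -0.88 (SE 0.17, adjusted p = 0.0181), both as differences of log2(CPM + 1) in limma at an FDR under 0.1 over all 9003 genes. Thus 2 of the 9 genes were called lower, where 0.822% of all genes were called lower. All 9 differences were negative, as were 50.1% of those over all genes, with a median of -0.65, while the median of all genes was -0.00014. In 7 of the 9 genes both GN libraries were below both control libraries, and 22% of all genes had that order. The other differences were -0.78 for *Fos* (adjusted p = 0.254), -0.93 for *Fosb* (0.282), -0.65 for *Jun* (0.762), -0.35 for *Junb* (0.181), -0.59 for *Maff* (0.562), -0.27 for *Fosl1* (0.846) and -0.19 for *Fosl2* (0.804), and none of these passed the threshold. With the replicate number as a block, *Fos* had an adjusted p of 0.0595, and 1.28% of all genes were called lower. That block also ties control and GN libraries by number, which were not taken as pairs, so *Fos* is not counted as called. The calls of *Jund* and *Atf3* needed both GN libraries and control replicate 1, for without any of these 3 no AP-1 gene was called in limma (*Jund* adjusted p = 0.288 and *Atf3* 0.187 without control replicate 1).

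EV+ and EV− macrophages were each compared with GN to ask what differed after ASC treatment. *Junb* fell in both, by 0.66 on the log2 scale in EV+ (SE 0.10, adjusted p = 0.0156) and by 0.61 in EV− (SE 0.10, adjusted p = 0.0147). It was the only AP-1 gene called in either comparison, 1 of 9 in each, where 0.0555% and 0.322% of all genes were called lower. Both comparisons use the same 2 GN libraries, and without GN replicate 1 or GN replicate 2 no AP-1 gene was called (*Junb* adjusted p = 0.467 and 0.135 in EV+, and 0.332 and 0.108 in EV−).

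For the other genes in EV+ against GN, the log2 differences were -0.87 for *Fos* (adjusted p = 0.411), -1.32 for *Fosb* (0.212), -1.52 for *Jun* (0.536), -0.65 for *Jund* (0.187), -0.71 for *Atf3* (0.187), -0.26 for *Fosl1* (0.912), -0.26 for *Maff* (0.913) and -0.13 for *Fosl2* (0.93). In EV− against GN they were -0.81 for *Fos* (adjusted p = 0.324), -1.33 for *Fosb* (0.127), -1.10 for *Jun* (0.609), -0.46 for *Jund* (0.34), -0.53 for *Atf3* (0.307), -0.46 for *Fosl1* (0.755), -0.57 for *Maff* (0.663) and 0.01 for *Fosl2* (0.994). The largest differences were thus those of *Jun* and *Fosb*, which did not pass, while the smaller difference of *Junb* did, its standard error of 0.10 standing against 0.30 for *Fosb* and 0.50 for *Jun*. The median over the 9 genes was -0.66 in EV+ and -0.57 in EV−, against -0.011 and 0.00061 over all genes. Every EV+ library was below both GN libraries in 8 of the 9 genes (11.8% of all genes) and every EV− library in 7 of 9 (12.8% of all genes).

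EV+ and EV− libraries of the same replicate number deviated together, so the fit with the replicate number as a block was computed as well. It also ties the control and GN libraries by number, which were not taken as pairs, so its calls against GN rest in part on that tie. Under this block *Jund* and *Atf3* joined *Junb* in EV+ against GN (adjusted p = 0.021 and 0.0917), and 0.222% of all genes were called lower. For EV− the same fit added *Fosb* and *Jund* to *Junb* (adjusted p = 0.0707 and 0.0615), and the share of all genes was 0.455%.

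**Figure D2:**
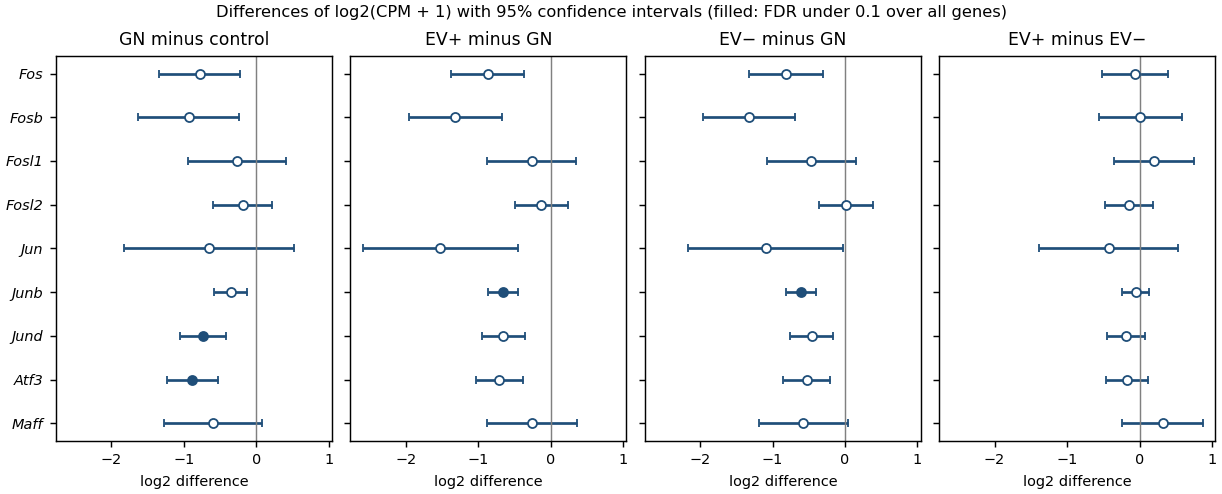
Differences of log2(CPM + 1) between groups (horizontal axes) for each AP-1 gene (vertical axis), with 95% confidence intervals from limma, for GN minus control, EV+ minus GN, EV− minus GN and EV+ minus EV−. Filled points passed an FDR under 0.1: *Jund* and *Atf3* in GN minus control and *Junb* in both EV groups minus GN; the intervals of EV+ minus EV− all include 0.

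EV+ was compared with EV− to ask whether macrophages that carried the dye differed from those of treated rats that did not. No AP-1 gene was called in limma, none had an unadjusted p under 0.05, and edgeR's quasi-likelihood and likelihood-ratio tests and DESeq2 called none. Over all genes, 0.0222% were called in either direction and 4.57% had an unadjusted p under 0.05. The lowest unadjusted p was 0.142, that of *Jund*, with a log2 difference of -0.19 and a 95% confidence interval from -0.46 to 0.07. The narrowest interval was that of *Junb*, from -0.24 to 0.13 around -0.05, and the widest that of *Jun*, from -1.38 to 0.53 around -0.42. Between libraries of the same replicate number, *Jun* was lower in EV+ in 3 of 3 (log2 differences of -0.57, -0.33 and -0.37), and so were *Jund* (-0.32, -0.13 and -0.13) and *Fosl2* (-0.23, -0.06 and -0.13). *Junb* and *Atf3* were lower in 2 of 3, and *Fos* (-0.56, 0.20 and 0.18), *Fosb*, *Fosl1* and *Maff* in 1 of 3. Of all genes, 14.3% were lower in EV+ in 3 of 3. With 3 pairs, an exact test of signs cannot reach the threshold, and none was made. In limma with the block limited to the EV libraries, a setting chosen after earlier results were seen, *Jun* passed (-0.42, adjusted p = 0.0178), where 0.167% of all genes were called lower. No other of the 24 settings tried called an AP-1 gene here. In none of the 9 genes did all EV+ libraries lie below all EV− libraries (4.65% of all genes did) or above them (4.25%).

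Replicate 1 of the EV groups differed from replicates 2 and 3 in the balance of *Jun* and *Junb* RNA. The ratio of *Jun* to *Junb* CPM was 0.299 and 0.295 in control and 0.243 and 0.240 in GN. It was 0.313 in EV+ replicate 1 and 0.429 in EV− replicate 1, but 0.0956 and 0.0774 in the other EV+ libraries and 0.122 and 0.0965 in the other EV− libraries. The heat shock gene *Hspa1a*, whose chaperone product rises with stress, showed the same split, with 285 CPM in EV+ replicate 1 against 98.8 and 73.9 CPM in replicates 2 and 3, and 525 CPM in EV− replicate 1 against 115 and 112 CPM. Its levels were 566 and 619 CPM in control against 365 and 327 CPM in GN. The 11 NK and T cell markers summed to 756 CPM in EV− replicate 1, of which *Prf1*, the pore-forming protein perforin, gave 335 CPM, while the T cell gene *Cd3e* did not pass 2.09 CPM in any library. They summed to 41.1 CPM in EV+ replicate 1, where the other EV+ libraries held 20.5 and 23.2 CPM. *Jun* and *Hspa1a* were thus high in replicate 1 of both groups, and the NK and T cell markers mainly in that of EV−. Their part in the levels of *Jun* was not tested.

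Without replicate 1 of both EV groups, a setting chosen after these values were seen, more of the genes passed. For EV+ against GN, 5 were called (*Fos*, *Fosb*, *Jun*, *Junb* and *Jund*), where 0.255% of all genes were called lower, and *Jun* had a log2 difference of -2.05 (adjusted p = 2.96e-05). For EV− against the same GN libraries, 5 were called (*Fos*, *Fosb*, *Jun*, *Junb* and *Jund*), where the share of all genes was 0.633%, and *Jun* had a difference of -1.70 (adjusted p = 0.000238). In GN against control, whose own libraries were not touched, 6 were called (*Fos*, *Fosb*, *Jun*, *Junb*, *Jund* and *Atf3*) with 1.09% of all genes, since the fit shares its estimate of the spread over all groups. EV+ and EV− still had no AP-1 gene called between them.

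**Figure D3:**
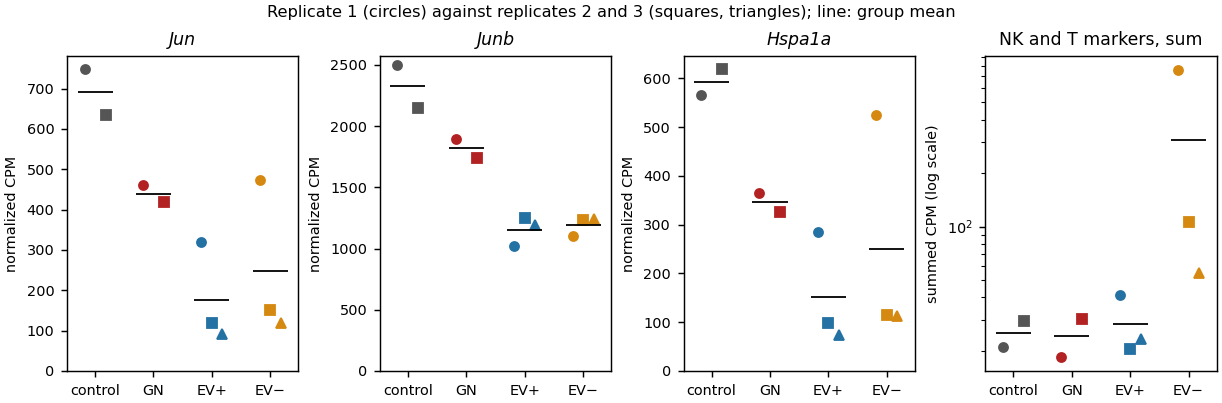
CPM of *Jun*, *Junb* and *Hspa1a* (linear axes from 0) and the summed CPM of 11 NK and T cell markers (log axis) in each library of the 4 groups, with circles for replicate 1, squares and triangles for replicates 2 and 3, and a line at the group mean. Replicate 1 is the highest EV+ and EV− library for *Jun* and *Hspa1a* and the lowest for *Junb*, and EV− replicate 1 reaches 756 CPM in the marker sum.

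Against control, both EV groups were lower in most of the family. In EV+, 6 of the 9 genes fell (1.81% of all genes were called lower): the log2 differences were -2.25 for *Fosb* (SE 0.30, adjusted p = 0.000782), -2.17 for *Jun* (SE 0.50, 0.037), -1.65 for *Fos* (SE 0.24, 0.0016), -1.59 for *Atf3* (SE 0.15, 4.16e-05), -1.38 for *Jund* (SE 0.14, 6.19e-05) and -1.01 for *Junb* (SE 0.10, 4.16e-05). In EV−, 6 of 9 also fell (1.56% of all genes): the differences were -2.26 for *Fosb* (adjusted p = 0.000849), -1.59 for *Fos* (0.00281), -1.41 for *Atf3* (0.00014), -1.19 for *Jund* (0.000266), -1.17 for *Maff* (0.0636) and -0.96 for *Junb* (9.37e-05). *Jun* did not pass in EV− (-1.75, adjusted p = 0.112), and its adjusted p was 0.0225 with the replicate block (-1.37, with 1.89% of all genes called lower), which also ties control libraries by number. *Jun* gained the call in EV− in 9 of 24 alternative settings. Among them were 3 of the 10 fits without a single library, where its difference ranged from -2.35 to -1.36 and its adjusted p from 0.0122 to 0.37. The call of *Jun* in EV+ was lost without either control library (adjusted p = 0.198 and 0.194) and without EV+ replicate 2 or 3 (0.101 and 0.15), and that of *Maff* in EV− without either control library (0.268 and 0.275) and without EV− replicate 2 or 3 (0.145 and 0.115). These contrasts share the control libraries with each other and with GN against control. *Fosl1* and *Fosl2* were not called in any comparison, and in the test among all 4 groups 6 genes passed (*Fos*, *Fosb*, *Jun*, *Junb*, *Jund* and *Atf3*), where 2.57% of all genes did. *Jun* was at the margin there (adjusted p = 0.0986) and lost the call in 14 of 23 alternative settings, among them 7 of the 10 fits without a single library, with adjusted p up to 0.406.

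The AP-1 genes differed in how closely they followed each other over the 10 libraries, which are given here as a description. *Fos* and *Fosb* were the closest pair (Pearson r = 0.987 of log2(CPM + 1)), *Jund* was nearest to *Fos* (0.971), and *Junb* and *Atf3* were nearest to each other (0.946). *Jun* was also nearest to *Fos* (0.913). *Fosl2* was least like the rest, with a median r of 0.52 with the other 8. All libraries of a group share their condition, so these values follow the group levels as well as the spread within groups. Of 7171 other genes with a mean of at least 5 CPM, genes among the 5 nearest to the mean standardized profile of the 7 AP-1 genes at that level included *Ccl3* (r = 0.988), which encodes a macrophage chemokine, *Zfp36* (0.982), which encodes the mRNA decay factor tristetraprolin, *Dusp1* (0.971), which encodes a phosphatase of MAP kinases, and *Rgs2* (0.965), which encodes a regulator of G protein signalling. *Ccl3* had mean levels of 694 CPM in control, 325 CPM in GN, 196 CPM in EV+ and 214 CPM in EV−.

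Around the family, 6 lists of related genes were read. Of 24 other immediate early genes in the table, 6 fell in GN against control, beside the 0.822% of all genes called lower: *Ppp1r15a*, which encodes a phosphatase subunit of the stress response (-0.82, adjusted p = 0.00543), *Gadd45b* (-0.72, 0.0029), *Klf2* (-0.65, 0.0743), *Zfp36* (-0.62, 0.048), *Ier5* (-0.48, 0.0179) and *Ier2* (-0.44, 0.0231). None rose, and the median of the list was -0.46. Against GN, EV+ had lower *Zfp36* (-0.90, adjusted p = 0.0156) and *Ier2* (-0.42, 0.092), 2 of 24 beside 0.0555% of all genes, with a median of -0.30. EV− had 4 of 24 lower, beside 0.322% of all genes, namely *Egr1*, a zinc finger factor of the early response (-1.72, adjusted p = 0.0298), *Zfp36* (-0.78, 0.0147), *Dusp1* (-0.63, 0.0633) and *Ppp1r15a* (-0.56, 0.0749), with a median of -0.27. *Zfp36* held 2855 and 2326 CPM in control, 1770 and 1598 CPM in GN, 972, 912 and 831 CPM in EV+, and 1186, 882 and 896 CPM in EV−, the same order without overlap as *Junb*. With each library left out, the 3 counts ranged from 2 to 8, 0 to 3 and 0 to 5. The count in GN against control was 2 without control replicate 1, GN replicate 1 or GN replicate 2, and those of EV+ and EV− against GN were 0 without either GN library. In EV+ the count was 1 without any 1 EV+ library or EV− replicate 3, and in EV− it was 2 without EV− replicate 2. *Ier2* in EV+ lost its call in 6 of the 10 fits, and *Ppp1r15a* in EV− and *Klf2* in GN in 5 of 10. With the replicate block over all groups, 8, 4 and 7 of the 24 were called in these comparisons, beside 1.28%, 0.222% and 0.455% of all genes. Between EV+ and EV− no immediate early gene was called by limma, edgeR or DESeq2, 2 had an unadjusted p under 0.05, and the block limited to the EV libraries called 1.

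The genes that act on AP-1 had no calls in limma. Of 25 MAP kinases and nuclear factors that act on AP-1 genes, among them SRF, ELK and MEF2 factors, limma called none in any comparison, with medians of 0.0008 in GN against control and 0.022 in each EV group against GN. At an unadjusted p under 0.05 there were 2, 2 and 3 of the 25 in these comparisons, edgeR's quasi-likelihood test called none, and the likelihood-ratio test and DESeq2 each called 1 in EV− against GN. Of 8 ubiquitin ligases and cofactors of Jun and Fos, none was called by limma, edgeR or DESeq2 in any comparison, with 0, 2 and 2 at an unadjusted p under 0.05. Shares of all genes at this unadjusted level are not given for comparisons with control or GN. These counts, and those of the lists that follow, thus have no share to be set against. RNA levels of kinases and ligases do not measure their activity.

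Of 18 other bZIP factors, which include partners of AP-1, none was called in EV+ or EV− against GN by limma, edgeR or DESeq2, where 1 and 0 had an unadjusted p under 0.05. Against control, 3 of the 18 were called lower in each EV group, beside 1.81% (EV+) and 1.56% (EV−) of all genes. Among them were *Atf4* and *Ddit3*, both of the integrated stress response. Their log2 differences were -0.57 and -0.38 in EV+ and -0.43 and -0.40 in EV−. Over the 10 fits without a single library, *Ddit3* lost its call in 3 in EV+ and in 2 in EV−. *Atf4* lost it in 1 in EV−. Of 13 genes known as AP-1 targets, 1 was called in GN against control, beside 0.822% of all genes called lower. It was *Il1b*, which encodes the cytokine IL-1β (-0.64, adjusted p = 0.0772), with 5157 and 3790 CPM in control against 2917 and 2770 CPM in GN. *Ccl2*, which encodes a monocyte chemokine, fell in EV− against GN (-0.99, adjusted p = 0.0833), 1 of 13 beside 0.322% of all genes. *Ccl2* stood at 37.9 and 40.9 CPM in GN and at 15.4, 23.1 and 20.3 CPM in EV−. In EV+ its libraries held 15.9, 26.8 and 26.6 CPM, and no target was called against GN, where 1 had an unadjusted p under 0.05, the likelihood-ratio test, DESeq2 and the replicate block each called 1 and edgeR's quasi-likelihood test none. The call of *Ccl2* in EV− against GN was lost in 7 of the 10 fits without a single library, and that of *Il1b* in GN against control in 3 of 10. Against control, *Il1b* was also lower in EV+ (-0.56, adjusted p = 0.0624), 1 of 13 beside 1.81% of all genes. In EV− against control *Il1b* (-0.76, 0.0141) and *Ccl2* (-0.83, 0.0658) were lower, 2 of 13 beside 1.56%. Of these, *Il1b* lost its call in 5 of 10 such fits in EV+ and 1 in EV−, and *Ccl2* in 6.

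Of 13 heat shock genes known to rise when tissue is dissociated, none was called in GN against control or in either EV group against GN by limma, edgeR or DESeq2, with 4, 1 and 0 at an unadjusted p under 0.05. The list summed to 4505 and 4453 CPM in control and between 3500 and 4404 CPM in the other libraries. Against control, *Hspa1a* (-2.20, adjusted p = 0.0666), *Hsp90aa1* (-1.16, 0.0371), *Dnajb1* (-0.999, 0.0463) and *Dnajb4* (-0.71, 0.0315) fell in EV+, 4 of 13 beside 1.81% of all genes called lower. In EV−, *Dnajb4* fell (-0.63, 0.0683), 1 of 13 beside 1.56% of all genes. These calls depended on single libraries. In EV+ the count ranged from 0 to 6 over the 10 fits without 1 library (0 without either control library, 2 without EV+ replicate 2 and 1 without EV+ replicate 3), and the call was lost in 6 of 10 for *Hspa1a*, 4 for *Hsp90aa1*, 4 for *Dnajb1* and 2 for *Dnajb4*. In EV− the count ranged from 0 to 4 (0 without either control library, EV+ replicate 3 or EV− replicate 2, 2 without EV+ replicate 1 or 2, and 4 without EV− replicate 1), and *Dnajb4* lost its call in 5 of 10. Without replicate 1 of both EV groups, 3 heat shock genes were called in each of GN against control and EV+ against GN, and 2 in EV− against GN, beside 1.09%, 0.255% and 0.633% of all genes called lower. The part of the heat shock genes in the AP-1 levels was not tested.

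Among markers of cell types, *Itgam* (0.57, adjusted p = 0.0126) and *Cd14* (0.65, 0.0998) rose in GN against control, and the 13 macrophage markers in the table summed to 24802 and 25038 CPM in control and to between 28817 and 31026 CPM in the other libraries. Neutrophil markers (6 genes) summed to 556 and 550 CPM in control and to between 610 and 744 CPM elsewhere, and dendritic cell markers (3 genes) to between 24.7 and 34.0 CPM in all libraries. B and plasma cell markers (4 genes) summed to 89.1 and 112 CPM in control and to between 45.9 and 74.8 CPM elsewhere. Of these 4, only *Cd79b* had a negative difference in GN against control (-0.85, adjusted p = 0.0331 in limma), and 3 had positive ones. The single erythroid marker in the table did not pass 1.44 CPM in control and stood between 2.68 and 5.25 CPM elsewhere. Apart from the dendritic cell markers, these sums did not overlap between control and the nephritic groups. A sum follows its strongest genes, and single genes of the longer lists went both ways. Against control, differences of macrophage markers were positive in 10 of 13 in GN, 9 in EV+ and 6 in EV−. Those of neutrophil markers were positive in 3 of 6 in GN and 5 in each EV group. The part of these markers in the AP-1 differences was not tested.

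**Figure D4:**
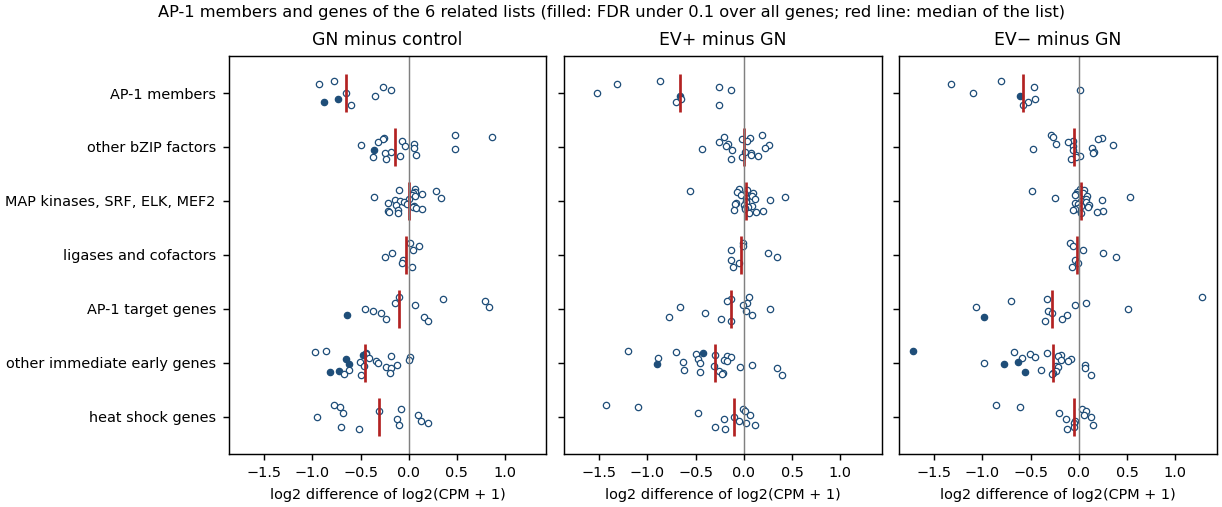
Differences of log2(CPM + 1) (horizontal axes) for the 9 AP-1 genes and the genes of 6 related lists (vertical axis) in GN minus control, EV+ minus GN and EV− minus GN. Each point is a gene, filled where it passed an FDR under 0.1, and red lines mark medians, which lie at -0.65, -0.66 and -0.57 for the AP-1 genes and between -0.46 and -0.27 for the other immediate early genes.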

How the data were processed

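RNA of flow-sorted rat splenic M2 macrophages was sequenced in 10 libraries, grouped by the labels into control, GN, EV+ and EV−. Per the labels, the authors aligned reads to rn6 with STAR (v2.5.3) and counted them on genes with HTSeq (v0.6.0). They removed genes under 1 CPM in all samples and applied TMM normalization in edgeR. The table that the authors deposited holds a normalized signal, TMM-scaled CPM, for 9003 genes. Every value was a whole number of reads (100% within 0.01 of a whole), between 19270515 and 26617093 per library. Spreadsheet dates had replaced 18 gene symbols, which were not named.

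The main test was limma (v3.58.1, R v4.3.3) with an intensity trend on log2(CPM + 1), in 1 fit of the 4 groups (6 residual degrees of freedom), with Benjamini-Hochberg adjustment over all 9003 genes and an FDR under 0.1. The plan named this test for normalized values, which were deposited, and edgeR's quasi-likelihood test for raw counts. Alternatives used the recovered reads in edgeR (v4.0.16) and DESeq2 (v1.42.0), other scalings, filters and pseudocounts, the replicate block and each library left out. Same-numbered EV+ and EV− libraries had residual correlations of 0.203, 0.295 and 0.122 over all genes, each the highest with its own number, so these numbers were taken as pairs from the data alone. Those of control and GN correlated at 0.0878, and unlike numbers at -0.0878. With 2 libraries in each group these values mirror each other by construction and cannot show whether the numbers are pairs. Control and GN were therefore not taken as pairs. The replicate block uses every number, so it also ties control and GN. A block limited to the EV libraries, added later, leaves the spread between numbers out of the error against GN and control, and was used for EV+ against EV− alone. The procedure was run on simulated data in which GN, EV+ and EV− all had the same changes against control. Finding true differences between GN, EV+ and EV− was therefore not checked. The simulated libraries were drawn independently, without ties between same-numbered ones.

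The 9 genes and all lists were chosen with earlier results of these data known. Named genes were the 9 AP-1 genes, list genes with an FDR under 0.1 in the comparison described, and the 5 genes nearest to the AP-1 profile. Some of the genes this rule names are not reported here.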

Additional observations from a re-analysis of the deposited data

How the results depend on the processing

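Across 24 alternative settings, the 9 AP-1 genes kept direction and side of the threshold in 1354 of 1502 results. The tally includes the block limited to the EV libraries, also where its calls were not used. It also includes the test among the 4 groups, which has no direction and can keep only its side of the threshold. Another 44 lost the call, 82 gained it and 22 changed sign, all 22 in uncalled differences. In EV+ against EV− (0 called), the block limited to the EV libraries called 1 (*Jun*) and no other setting any. In EV+ and EV− against control the count stayed between 5 and 7. In GN against control (2 called) it was 4 with voom weights, 0 without the intensity trend, 5 with only the groups compared, 0 to 4 with each library left out, and 6 without replicate 1 of both EV groups. In EV+ against GN (1 called) it was 4 by the likelihood-ratio test, 3 by DESeq2, 4 with voom weights, 0 without the trend, 3 with only the groups compared, 0 to 4 with each library left out (4 without EV− replicate 1, 3 without EV− replicate 2, 2 without EV− replicate 3), and 5 without replicate 1 of both EV groups. In EV− against GN (1 called) it was 2 by the likelihood-ratio test, by DESeq2 and with voom weights, 0 without the trend, 0 to 3 with each library left out (3 without EV− replicate 1, 2 without EV+ replicate 2), and 5 without replicate 1 of both EV groups. With the replicate block it was 3 in each EV group against GN, and 2 in each by edgeR's quasi-likelihood test with the block. The block limited to the EV libraries gave 6 in GN against control and 6 in each EV group against GN, calls that were not used because this fit leaves the spread between numbers out of the error there. Apart from the calls given with the results, the block in limma changed no other call of an AP-1 gene between 2 groups. Where a library outside the 2 groups compared was left out, the differences kept their values and only the shared estimate of the spread moved. The cause of the other shifts was not tested.

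Signs turned as follows. Without control replicate 1, *Fosl1* (0.211) and *Fosl2* (0.131) turned in GN against control, and *Fosl2* in EV+ (0.00206) and EV− (0.142) against control, while the other end of the single-library range, without control replicate 2, was -0.744, -0.504, -0.633 and -0.493. *Fosl2* in EV− against GN was -0.0658 with the replicate block in limma and -0.0677 in edgeR, -0.0558 without GN replicate 2, -0.0633 without EV− replicate 3 and at most 0.0784. In EV+ against EV−, *Fosb* was -0.067 by edgeR's quasi-likelihood test, -0.0693 by its likelihood-ratio test, -0.070 by DESeq2, -0.033 by edgeR with the block, and -0.269 to 0.381 with each library left out (negative without EV+ replicate 1 or 3 or EV− replicate 2 or 3). With each library left out, *Fos* ranged from -0.291 to 0.286 (positive without EV+ replicate 2 or EV− replicate 1), *Junb* from -0.113 to 0.0347 (positive without EV+ replicate 1) and *Jun* from -0.957 to 0.179 (positive without EV− replicate 1). Without replicate 1 of both, *Fos* was 0.19 and *Fosl1* -0.057, the latter up to 0.362 with a single library left out. Over all genes, with that limited block included, calls ranged from 34 to 392 in GN against control, 0 to 113 in EV+ against GN, 6 to 172 in EV− against GN and 0 to 57 in EV+ against EV−. *Maff* and *Fosl1* rest on few reads, which limits their precision.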
